A study of Mus musculus with 6 samples.

Results

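The carriers that load, clear and recycle glutamate and GABA were examined in single nuclei of the mouse forebrain. They comprise 9 genes, chosen by exact gene symbol from the 32285 genes of the deposited table, and all 9 were found: the vesicular glutamate carriers Slc17a7, Slc17a6 and Slc17a8, the vesicular GABA carrier Slc32a1, the plasma membrane glutamate carriers Slc1a1, Slc1a2 and Slc1a3, the plasma membrane GABA carrier Slc6a11, and Glul, the enzyme glutamine synthetase. Forebrains came from 3 WT and 3 Npc1-/- mice aged 16 postnatal days (P16), and their nuclei were profiled by snRNA-seq, in which droplets isolate nuclei so that the transcripts of each can be counted. The Npc1-/- mice carry the Npc1nih allele in every cell and, per the study's methods, were F1 hybrids of BALB/cJ and C57BL6/J parents, with WT littermates. A single matrix joined the 6 libraries without a key from library to mouse, so WT and Npc1-/- were not compared and libraries are named by number only.

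Glutamate is the main excitatory and GABA the main inhibitory transmitter of the forebrain. Neurons concentrate either transmitter into synaptic vesicles with a vesicular carrier, and which vesicular carrier a neuron makes is a usual sign of its transmitter. After release, glutamate is taken up mostly by astrocytes, which convert it to glutamine with glutamine synthetase and return the glutamine to neurons, and GABA is taken up by both neurons and astrocytes.

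The matrix held 75878 barcodes and libraries 1 to 6 held from 8217 to 16118 of them, with 51343653 to 107583300 unique molecular identifiers (UMIs, each standing for 1 captured transcript) and a median of 4469 to 5439 UMIs per barcode. A limit of 10% mitochondrial UMIs excluded 11 barcodes, and 75867 nuclei were analysed. Nuclei were sorted in 2 ways, neither of which used any of the 9 genes. Gates planned from 15 lists of 8 marker genes held 28368 nuclei (37.4%). Since that was a minority, classes were added after the data had been seen, which place each nucleus by the likelihood of its counts over 6009 genes: 53855 nuclei (71.0%) fell into 24 classes and 4415 into a set rich in mitochondrial RNA, while 17597 (23.2%) resembled a mixture of 2 classes and were set aside. A class is called by a cell type's name and -like where that type had a marker list, and by its seed genes otherwise. All 8 listed markers were at least 2-fold above the median of the other classes in the thalamic, striatal, neuroblast, glial, vascular, ependymal and choroid plexus classes, against 3 or 4 of 8 in each of 8 sets of telencephalic glutamatergic-like neurons, 5 of 8 in Lhx6 and 6 of 8 in Adarb2 interneuron-like nuclei. Levels are UMIs of a gene per 1e6 UMIs of the class (CPM), with 95% intervals that cover counting error only, and the 6 libraries are not replicates of a group. Barcode sequences shared by more than 1 library numbered 631 of 75245 (0.839%).

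Free RNA in droplets gives every nucleus some transcripts it did not make, and levels of a vesicular carrier in nuclei that should lack it are given beside the results. Microglia-like nuclei (2740) held 99.3 CPM of Slc17a7, 21.4 CPM of Slc17a6, 1.70 CPM of Slc17a8 and 26.7 CPM of Slc32a1. In libraries 5 and 6, which had the lowest mitochondrial share of UMIs (medians of 0.0380% and 0.0204% per barcode, against 0.0718% to 0.186% in the others), Slc17a7 in microglia-like nuclei was also lowest, at 76.7 and 58.5 CPM against 86.5 to 136 CPM, and the part of this in the differences between libraries was not tested. Microglia-like nuclei were the shallowest of the 24 classes, with a median of 2242 UMIs, and deeper nuclei held less of the same carriers: Slc17a7 was at 34.9 CPM in striatal-like nuclei (6519 UMIs) and Slc32a1 at 5.94 CPM in telencephalic glutamatergic-like nuclei (8201.5 UMIs). The microglia-like level is therefore a reference and not a floor for neurons, and the part of free RNA in any one level was not tested. The mitochondrial RNA-rich set, with a median of only 1401 UMIs, held 186 CPM of Slc17a7 and 1801 CPM of Slc1a2 and was left out of the comparisons between classes.

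The plot of all 9 genes over the 24 classes shows that Slc1a2, Slc1a3 and Slc6a11 each had the astrocyte-like class far above the rest, while Slc17a7 and Slc17a6 had their highest levels in glutamatergic neuron classes.

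**Figure D1:**
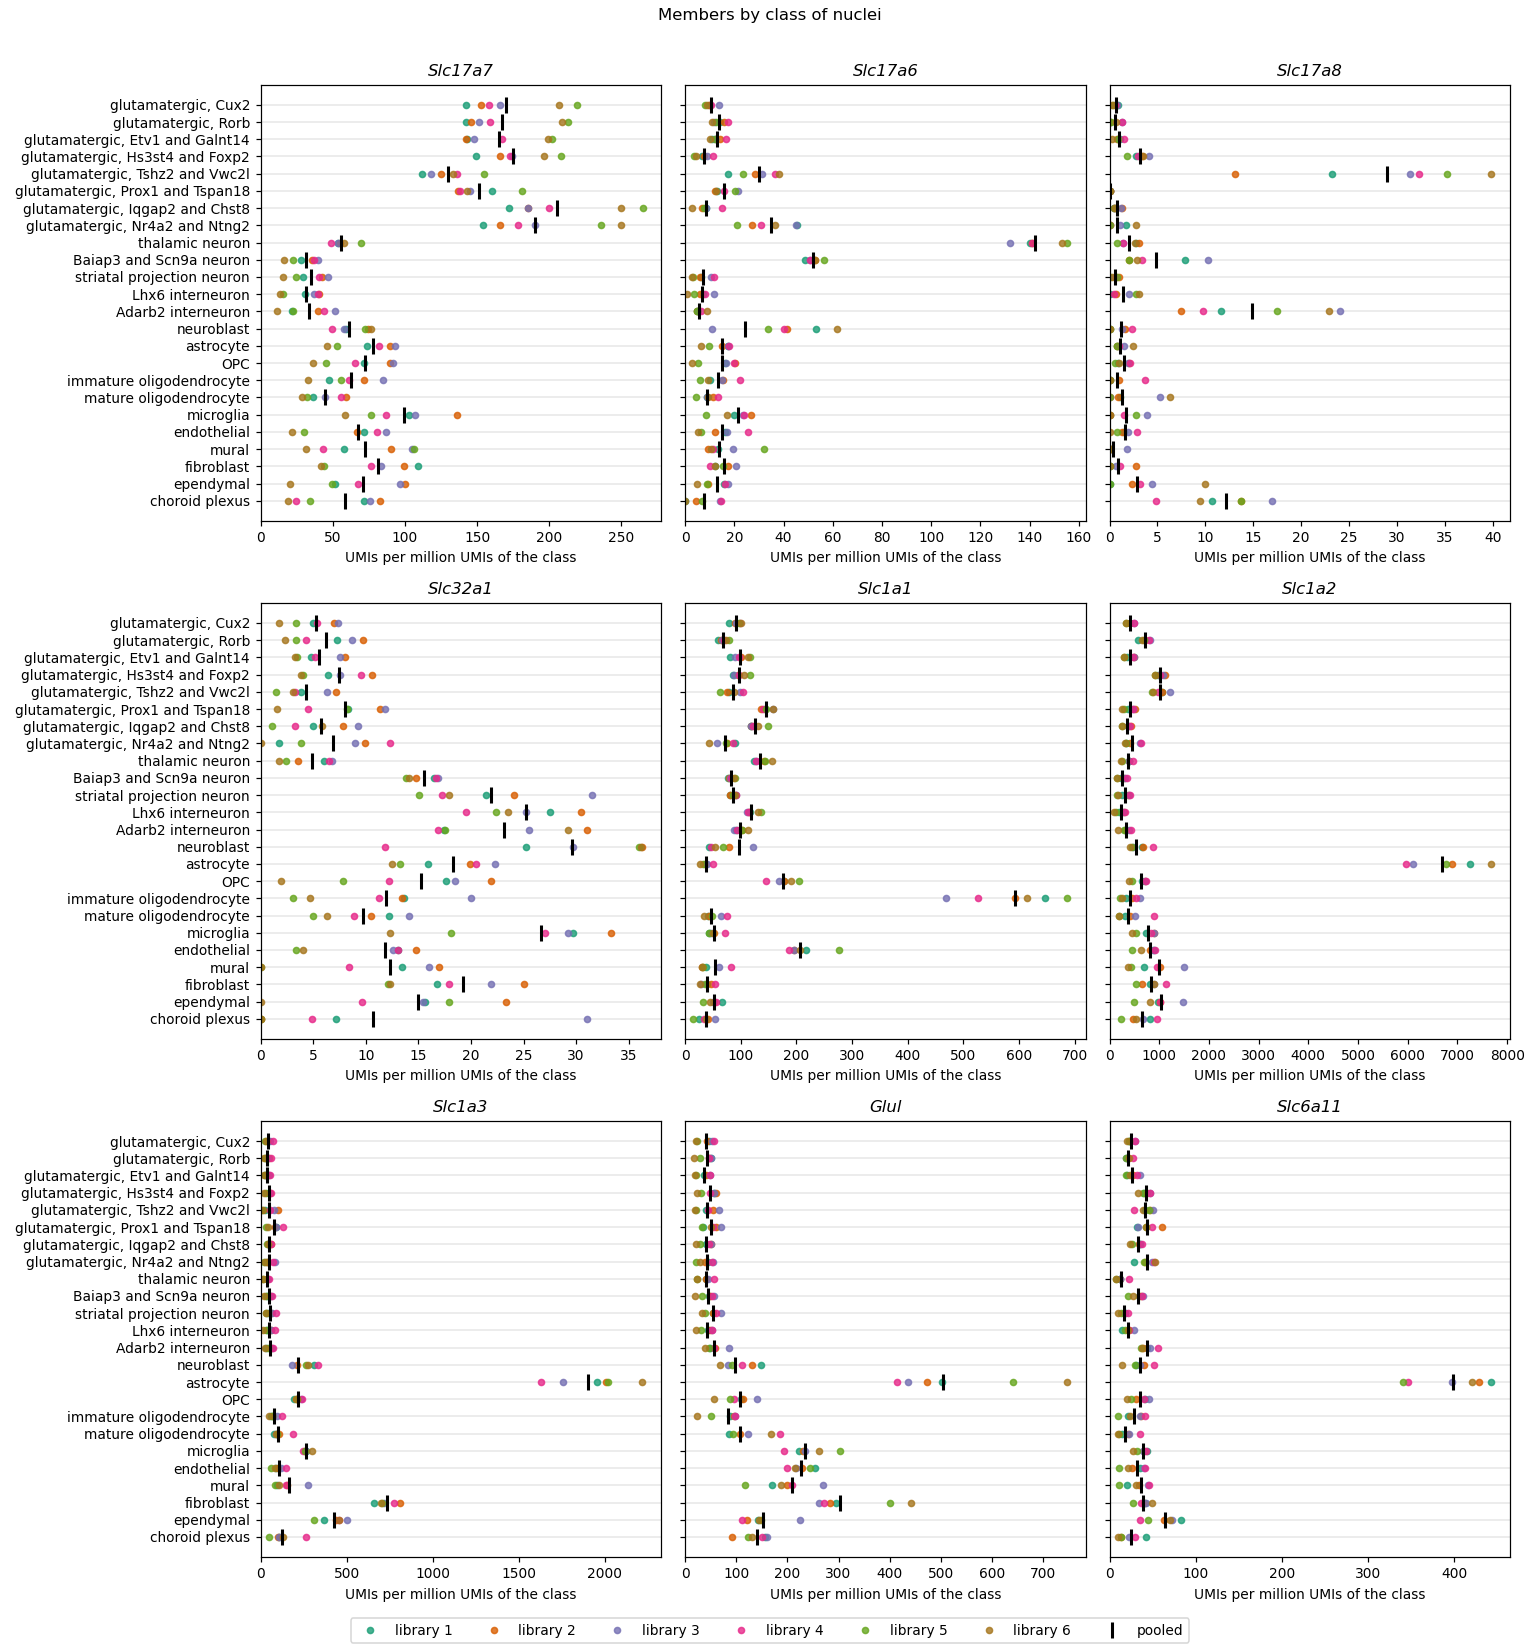
Level of each of the 9 genes (x axis, CPM) in 24 classes of nuclei (y axis); coloured points are libraries 1 to 6 and the black bar is all libraries pooled. Slc1a2, Slc1a3, Glul and Slc6a11 stand highest in the astrocyte class, Slc1a1 in the immature oligodendrocyte class and Slc17a6 in the thalamic class.

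The astrocyte-like class was the highest of 24 for 4 of the genes, Slc1a2, Slc1a3, Glul and Slc6a11. Because these 4 stood highest in the same class, the 250 bases before their RefSeq transcription starts (GRCm38.p6) are shown, 5′ to 3′ on the gene's strand. Capitals mark matches, on either strand, to any of 5 motifs: TTGGCA, part of the nuclear factor I site; CAGCTG, an E-box; CCAAT, the site of factor NF-Y; TATAAA, the TATA box; and GGGCGG, the Sp1 box. Overlapping matches are joined into 1 run of capitals.
Slc1a2, chr2:102706188-102706437, + strand: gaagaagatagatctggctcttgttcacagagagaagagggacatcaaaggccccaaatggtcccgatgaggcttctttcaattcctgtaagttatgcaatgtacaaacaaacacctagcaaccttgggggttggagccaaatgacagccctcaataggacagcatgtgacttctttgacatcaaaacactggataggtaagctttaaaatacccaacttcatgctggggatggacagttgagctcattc
Slc1a3, chr15:8710808-8711057, - strand: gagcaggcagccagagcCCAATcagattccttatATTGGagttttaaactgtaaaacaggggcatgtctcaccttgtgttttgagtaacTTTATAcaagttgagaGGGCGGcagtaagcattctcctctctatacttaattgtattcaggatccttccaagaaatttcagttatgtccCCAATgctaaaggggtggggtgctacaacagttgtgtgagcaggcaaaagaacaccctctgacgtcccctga
Glul, chr1:153899679-153899928, + strand: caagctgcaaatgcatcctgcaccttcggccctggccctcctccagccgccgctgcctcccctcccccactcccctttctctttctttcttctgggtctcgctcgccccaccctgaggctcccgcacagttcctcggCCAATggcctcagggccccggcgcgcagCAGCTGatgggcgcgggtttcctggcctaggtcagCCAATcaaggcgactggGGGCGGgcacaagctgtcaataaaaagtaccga
Slc6a11, chr6:114130991-114131240, + strand: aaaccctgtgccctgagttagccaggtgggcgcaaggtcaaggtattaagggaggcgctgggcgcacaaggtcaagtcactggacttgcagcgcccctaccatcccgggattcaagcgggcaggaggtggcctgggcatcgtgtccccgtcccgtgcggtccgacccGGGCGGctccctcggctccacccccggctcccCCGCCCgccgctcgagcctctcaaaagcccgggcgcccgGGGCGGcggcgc
The 4 sequences share no motif of the 5. Slc1a3 held 3 matches to CCAAT, 1 to TATAAA and 1 to GGGCGG, Glul held 2 to CCAAT, 1 to CAGCTG and 1 to GGGCGG, Slc6a11 held 3 to GGGCGG, and Slc1a2 held none. Of 32851 promoters of the same length, 33.8% held CCAAT, 32.7% GGGCGG, 13.0% CAGCTG, 12.4% TATAAA and 12.3% TTGGCA. The listed Slc1a2 start lies inside the annotated gene, so this window is not at the first annotated start.

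Among the vesicular glutamate carriers, Slc17a7 was highest in telencephalic neurons and Slc17a6 was highest in thalamic-like neurons. Slc17a7 (VGLUT1, ENSMUSG00000070570, chr7:45163949-45176142, GRCm38) is known as the carrier of most cortical and hippocampal excitatory terminals. It was at 170 CPM [168 to 172] in the 18192 telencephalic glutamatergic-like nuclei, and libraries 1 to 6 gave 146, 152, 160, 166, 212 and 203 CPM. These nuclei held 56.6% of all Slc17a7 UMIs, and 171946898 of the 497727021 UMIs of all genes. In 988 thalamic-like nuclei Slc17a7 was at 55.3 CPM, with 53.8, 55.1, 53.6, 48.9, 69.2 and 58.0 CPM. The telencephalic value was the higher one in all 6 libraries, which did not overlap between the classes. The ratio was 3.08-fold [2.83 to 3.35] between classes and 2.49-fold [2.15 to 2.90] between the planned gates, or 1.62 and 1.32 on the log2 scale, where 1362 telencephalic nuclei were set against 220 thalamic ones.

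Within the telencephalon, Slc17a7 differed little from one glutamatergic set to the next. The set seeded by Iqgap2 and Chst8 stood highest at 205 CPM (172 to 265 CPM over libraries), followed by the Nr4a2 and Ntng2 set at 190, the Hs3st4 and Foxp2 set at 175, the Cux2 set at 170, the Rorb set at 167 and the Etv1 and Galnt14 set at 165 CPM. Each neighbouring pair in that order had a counting interval that included no difference. No ratio was computed between sets further apart in the order. The Prox1 and Tspan18 set (151 CPM) and the Tshz2 and Vwc2l set (130 CPM) were lower, and the latter was below the former in 6 of 6 libraries.

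Outside these sets, Slc17a7 was at 34.9 CPM in striatal projection neuron-like nuclei, 31.8 CPM in interneuron-like nuclei and 31.1 CPM in the Baiap3 and Scn9a neurons. The telencephalic level was above the microglia-like level by 0.78 [0.66 to 0.89] on the log2 scale and in 6 of 6 libraries, from 0.17 in library 2 to 1.79 in library 6. After each nucleus was thinned to 2000 UMIs, 29.3% of telencephalic glutamatergic-like nuclei had a Slc17a7 UMI, against 17.7% of microglia-like, 11.7% of thalamic-like and 7.70% of striatal-like nuclei. Every thinned share leaves out nuclei with fewer UMIs. These were 1043 of 2740 microglia-like but only 216 of 18192 telencephalic glutamatergic-like nuclei, so microglia-like thinned shares describe the deeper ones. Unthinned shares were 71.8%, 20.4%, 40.5% and 21.8%, at median depths of 8201.5, 2242, 9586 and 6519 UMIs. The thalamic-like level thus stood below that of the shallow microglia-like nuclei and above the striatal-like level in 6 of 6 libraries, by 0.66 [0.52 to 0.81]. The part of free RNA in it was not tested.

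Slc17a6 (VGLUT2, ENSMUSG00000030500, chr7:51622006-51671119) is the usual carrier of thalamic and other subcortical excitatory neurons. Thalamic-like nuclei held 142 CPM [135 to 149], with 140, 141, 132, 141, 155 and 153 CPM in libraries 1 to 6. Telencephalic glutamatergic-like nuclei held 12.3 CPM, with 11.4, 12.4, 13.4, 15.4, 10.7 and 10.0 CPM. The libraries of the classes did not overlap, and the log2 ratio was 3.53 [3.43 to 3.62] between classes and 3.54 [3.28 to 3.80] between the planned gates, positive in 6 of 6 libraries both ways.

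**Figure D2:**
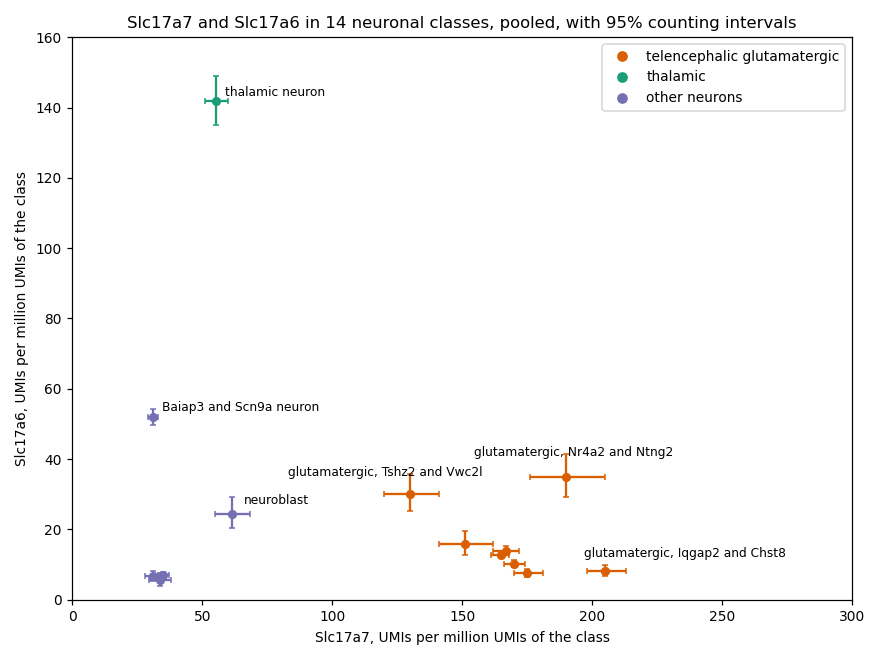
Pooled level of Slc17a7 (x axis) against Slc17a6 (y axis), both in CPM, in 14 neuronal classes; bars are 95% counting intervals. The thalamic class stands alone at 142 CPM of Slc17a6, the Baiap3 and Scn9a class is next at 52.0 CPM, and the 8 telencephalic glutamatergic sets lie between 130 and 205 CPM of Slc17a7.

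The second highest Slc17a6 level was in the 4742 neurons seeded by Baiap3 and Scn9a, a class with no fixed marker list that was given no cell type name. They held 52.0 CPM [49.7 to 54.3], with 48.5, 52.6, 50.9, 50.8, 56.6 and 52.9 CPM over the libraries. All 6 values were below every thalamic-like and above every telencephalic value. This class also held 71.6 CPM of Gad1 and 154 CPM of Gad2, the GABA-synthesizing enzymes, and Slc17a6 divided within it: 1849 nuclei without a Gad1 or Gad2 UMI held 92.3 CPM, and 1145 nuclei with both held 16.3 CPM. The log2 ratio of these subsets was 2.50 [2.28 to 2.72], in the same direction in 6 of 6 libraries. Slc32a1 ran the other way in the same subsets, at 9.40 CPM without Gad UMIs and 20.5 CPM with both, a log2 ratio of 1.13 [0.81 to 1.45] in favour of the Gad nuclei in 6 of 6 libraries. The subsets were chosen after the data had been seen. Nuclei with both Gad genes were also deeper, with a median of 8920 against 6489 UMIs, and the part of depth in these ratios was not tested.

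Among the telencephalic sets, Slc17a6 was highest in the Nr4a2 and Ntng2 set (34.9 CPM) and the Tshz2 and Vwc2l set (30.1 CPM). Relative to the Cux2 set at 10.3 CPM, the log2 ratios were 1.76 [1.46 to 2.05] and 1.55 [1.25 to 1.83], each positive in 6 of 6 libraries. The counting interval between these 2 sets included no difference. The other 6 sets, at 7.50 to 15.8 CPM, lay below the 21.4 CPM of microglia-like nuclei. Thinned shares of nuclei with a Slc17a6 UMI were 23.0% in thalamic-like nuclei, 9.03% in the Baiap3 and Scn9a class, 6.19% in the Tshz2 and Vwc2l set and 4.58% in microglia-like nuclei (unthinned, 66.1%, 25.4%, 20.9% and 4.67%).

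Having Slc17a6 changed the share of nuclei with Slc17a7 little. Among thalamic-like nuclei 653 had Slc17a6, 400 had Slc17a7 and 275 had both, so that 42.1% of the Slc17a6 nuclei had Slc17a7 against 40.5% of the whole class. Among telencephalic glutamatergic-like nuclei 1301 had both, and Slc17a7 was found in 73.7% of the Slc17a6 nuclei against 71.8% of the class. No test was made, and with free RNA present a shared nucleus need not have made both transcripts.

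Slc17a8 (VGLUT3, ENSMUSG00000019935, chr10:89574020-89621253, - strand) is known from scattered neurons that use another transmitter as well, such as cholinergic neurons and certain interneurons. It was the rarest of the 9 genes, with 1093 UMIs in 766 of the 75867 nuclei. Its levels are described for 3 neuronal classes first and for choroid plexus-like nuclei after them. The telencephalic Tshz2 and Vwc2l set held 29.0 CPM [24.2 to 34.4], with 23.2, 13.1, 31.4, 32.3, 35.2 and 39.8 CPM. The next telencephalic set, seeded by Hs3st4 and Foxp2, held 3.15 CPM, with 2.71, 3.40, 4.07, 3.01, 1.84 and 3.49 CPM. The ratio was 3.20 [2.78 to 3.63] on the log2 scale and the libraries did not overlap. In the Prox1 and Tspan18 set no UMI was counted in 720 nuclei. A limit of 3 counts allows up to 0.417% of nuclei with a UMI and a level of up to 0.545 CPM, and does not limit the share of nuclei that express the gene. The share of nuclei with a UMI was 15.6% in the Tshz2 and Vwc2l set (5.09% thinned) and 0.365% in microglia-like nuclei (0.375% thinned).

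Adarb2 interneuron-like nuclei were the second class, at 14.9 CPM [12.2 to 17.9], with 11.6, 7.44, 24.0, 9.80, 17.5 and 22.9 CPM. Lhx6 interneuron-like nuclei held 1.41 CPM, and the log2 ratio was 3.40 [2.70 to 4.16], positive in the 5 libraries in which both classes had a UMI. Here the transcript sat in few nuclei: 14 of 1017 had 3 or more UMIs, and these 14 held 89 of the 108 UMIs and came from all 6 libraries. They also held more Cnr1, the cannabinoid receptor of cholecystokinin interneurons, at 943 CPM against 257 CPM in the other 1003. Cnr1 was detected in 14 of the 14 and in 58.7% of the rest. The level of Cck in the 14 was 110 against 68.1 CPM, with an interval of the log2 ratio of -0.01 to 1.32 that includes no difference. Vip was detected in 0 of the 14, which allows up to 21.4% of nuclei with a UMI, and in 21.1% of the rest. Its level of 0 against 69.3 CPM has an upper limit of -1.84 for the log2 ratio, which treats UMIs and not nuclei as the units. By nuclei, the limit of 21.4% includes the 21.1% of the rest, so a lack of Vip is not shown. Reln, a marker of neurogliaform interneurons, was lower in level, at 251 against 1179 CPM with a log2 ratio of -2.23 [-2.67 to -1.82], but was detected in 7 of the 14 and in 60.4% of the rest. Lamp5, another of their markers, rested on 1 UMI in the 14, at 5.24 against 57.0 CPM with a log2 ratio of -3.44 [-8.75 to -0.96]. This subset was chosen after the data had been seen. Its shares of nuclei with a UMI were not thinned, and the part of depth in them was not tested. Adarb2 nuclei with Vip and without Reln held no Slc17a8 UMI in 161 nuclei (up to 1.86% with a UMI is allowed), those with Reln and without Vip held 13.0 CPM in 562, and those with neither held 35.8 CPM in 243.

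The third class was again the Baiap3 and Scn9a neurons, at 4.86 CPM, with 7.85, 2.01, 10.3, 3.41, 2.00 and 2.87 CPM, so that libraries 1 and 3 stood above the other 4. Of 86 nuclei with a UMI, 19 had 3 or more and held 107 of the 190 UMIs. These 19 held 318 CPM of Chat, the acetylcholine-synthesizing enzyme, against 9.66 CPM in the other 4723 nuclei, and 191 against 7.83 CPM of Slc5a7, the choline carrier. Chat was detected in 13 of the 19 and in 2.60% of the others, shares that were not thinned, and the part of depth in them was not tested. Slc17a6 was lower in the 19, at 8.70 against 52.2 CPM, with a log2 ratio of -2.59 [-5.63 to -0.73] that rests on 2 UMIs. Over the whole matrix, 128 nuclei had at least 2 of the cholinergic genes Chat, Slc5a7 and Slc18a3, and 29 of them (22.7%) had Slc17a8, at 55.1 CPM. By library the level in these cholinergic nuclei was 61.5, 10.6, 132, 71.0, 29.2 and 25.3 CPM, from 15 to 28 nuclei each. Of the 128, 70 were in the Baiap3 and Scn9a class and 40 were among the mixed nuclei. The partner genes compared in the 19 nuclei were chosen after the Slc17a8 values had been seen, while the rule for the 128 cholinergic nuclei was planned.

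**Figure D3:**
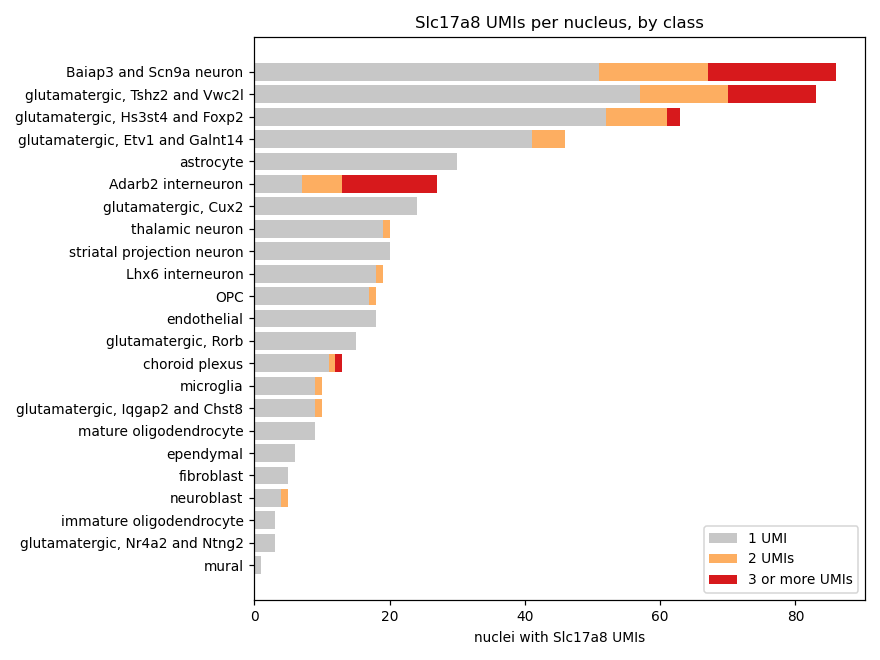
Number of nuclei (x axis) with 1, 2 or 3 or more Slc17a8 UMIs in each class with any (y axis). Nuclei with 3 or more were found in 5 classes, with 19 in the Baiap3 and Scn9a class, 14 in the Adarb2 class and 13 in the Tshz2 and Vwc2l set.

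Choroid plexus-like nuclei held 12.2 CPM of Slc17a8 as well, from 16 UMIs in 269 nuclei, against 2.90 CPM in ependymal-like nuclei. The log2 ratio was 2.07 [0.64 to 3.71], positive in 3 of the 4 libraries in which both classes had a UMI. Among the planned gates the choroid plexus gate was the highest, with 14 UMIs in 185 nuclei, an interval of 7.63 to 23.4 CPM and no UMI in library 4, and stood 4.53-fold above the next gate. The planned pair set the gate of 8 interneuron markers against telencephalic glutamatergic-like nuclei and gave 3.08 against 1.26 CPM, a log2 ratio of 1.29 [0.59 to 2.06] that ran from -0.13 to 2.56 over libraries. That gate held 5196 nuclei, of which only 27.9% fell into an interneuron class, so its values are not those of interneurons alone. Between classes, at 5.97 against 1.79 CPM, the ratio was 1.74 [1.43 to 2.04] and positive in 6 of 6 libraries. Of the 128 interneuron-like UMIs, 89 sat in 14 Adarb2 interneuron-like nuclei, and the interval treats UMIs and not nuclei as the units. Lhx6 interneuron-like nuclei, at 1.41 CPM, were not above the telencephalic level, so the ratio does not describe interneurons as a whole.

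Slc32a1 (VGAT, ENSMUSG00000037771, chr2:158610767-158615748) loads GABA into vesicles and is found in GABAergic neurons of every kind. It was higher in interneuron-like and striatal-like than in telencephalic glutamatergic-like nuclei in every library. Interneuron-like nuclei (2710) held 24.5 CPM [22.4 to 26.7], with 24.2, 30.7, 25.3, 18.6, 20.7 and 25.4 CPM, and the 4707 striatal projection neuron-like nuclei held 21.9 CPM [20.4 to 23.5], with 21.4, 24.1, 31.5, 17.2, 15.1 and 17.9 CPM. Telencephalic glutamatergic-like nuclei held 5.94 CPM, with 5.54, 8.51, 7.94, 5.59, 3.42 and 2.97 CPM. Every GABAergic library was above every glutamatergic one. The log2 ratios were 2.04 [1.89 to 2.20] for interneurons and 1.88 [1.74 to 2.02] for striatal neurons over glutamatergic neurons, with median depths of 7117.5, 6519 and 8201.5 UMIs. A Slc32a1 UMI was found in 17.4% of interneuron-like, 14.5% of striatal-like and 5.32% of telencephalic glutamatergic-like nuclei, or in 5.28% and 4.60% of the first pair after thinning, against 0.626% to 2.34% over libraries in the last. Microglia-like nuclei, at a median of 2242 UMIs, held 26.7 CPM, with a UMI in 5.77% of nuclei and 5.01% after thinning, and the interneuron-like level differed from theirs by -0.12 [-0.37 to 0.13] on the log2 scale.

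Among kinds of GABAergic neurons, Lhx6 and Adarb2 interneuron-like nuclei held 25.2 and 23.1 CPM, striatal nuclei with Drd1 alone held 21.1 CPM and those with Drd2 or Adora2a alone held 21.8 CPM, and the intervals of both ratios included no difference. Interneuron-like over striatal-like nuclei gave a log2 ratio of 0.16 [-0.00 to 0.32] between classes and -0.29 [-0.47 to -0.11] between the planned gates, where the interneuron gate was impure. With the level of the planned microglia gate, 15.3 CPM, subtracted from both gates the latter became -1.35. Neuroblast-like nuclei, named for the migrating young neurons of the olfactory lineage, had the highest value at 29.6 CPM. This was within counting error of the microglia-like level (0.15 [-0.18 to 0.47], above it in 4 of 6 libraries). The neuroblast-like value was 29.4 CPM without library 3, which held 552 of the 1244.

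Among the plasma membrane glutamate carriers, Slc1a1 stood apart from the astrocyte genes. Slc1a1 (EAAC1, ENSMUSG00000024935, chr19:28835049-28913960) is best known as the neuronal carrier for glutamate and cysteine. Its highest level by far was in the oligodendrocyte lineage, at 1 stage only. Immature oligodendrocyte-like nuclei (881) held 592 CPM [568 to 617], with 647, 592, 469, 527, 686 and 615 CPM. Oligodendrocyte precursor (OPC)-like nuclei held 175 CPM, with 178, 178, 168, 145, 204 and 190 CPM. Mature oligodendrocyte-like nuclei held 47.2 CPM, with 41.7, 42.5, 63.6, 75.2, 48.7 and 34.6 CPM. The library values of the 3 stages did not overlap, and the immature stage was above OPC by 1.75 [1.67 to 1.84] and above the mature stage by 3.65 [3.48 to 3.82] on the log2 scale, in 6 of 6 libraries each. In the planned gates the levels were lower, at 393 CPM [380 to 407] in 1478 immature, 135 CPM in OPC-like, 44.9 CPM in mature and 176 CPM in endothelial-like nuclei, in the same order of stages. The mature level was near the 52.2 CPM of microglia-like nuclei.

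The stages were divided further by markers of the transition, in subsets chosen after the data had been seen. OPC-like nuclei with the differentiation marker Gpr17 and no Enpp6 held 179 CPM and those without either held 170 CPM, with a log2 ratio of 0.07 [-0.10 to 0.25]. The 184 OPC-like nuclei with Enpp6, a gene of newly formed oligodendrocytes, held 242 CPM, above those without either marker by 0.51 [0.28 to 0.74] on the log2 scale and in 4 of 6 libraries. Mature-like nuclei with Mog and Enpp6 held 48.3 CPM and those with Mog alone 47.1 CPM, a log2 ratio of 0.04 [-0.30 to 0.37]. Immature-like nuclei with Enpp6 and no Mog (593) held 613 CPM, those with Mog (204) held 581 CPM and those with neither (84) held 428 CPM. The first were above the last by 0.52 [0.24 to 0.81] in 6 of 6 libraries, and the interval of their ratio to those with Mog, -0.06 to 0.22, included no difference. Enpp6 was among the genes that placed nuclei in these classes. After thinning, 62.9% of immature-like, 28.2% of OPC-like and 8.55% of mature-like nuclei had a Slc1a1 UMI, against 9.83% of microglia-like nuclei (unthinned, 80.9%, 41.6%, 263 of 1313 nuclei and 11.2%).

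**Figure D4:**
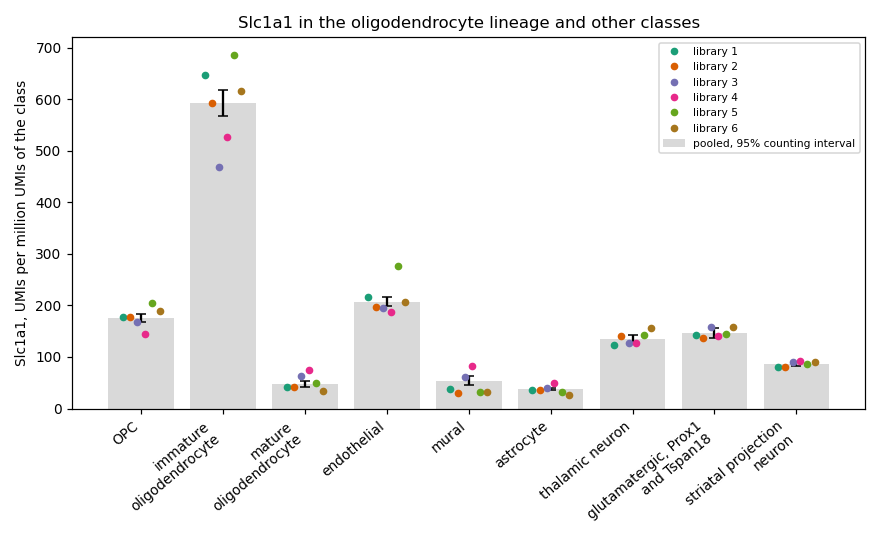
Slc1a1 level (y axis, CPM) in 9 classes; grey bars are all libraries pooled with 95% counting intervals and points are libraries 1 to 6. The immature oligodendrocyte class stands at 592 CPM, above OPC at 175 and mature oligodendrocytes at 47.2 CPM in every library.

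The second Slc1a1 level was in endothelial-like nuclei, which were above OPC-like nuclei by 0.24 [0.16 to 0.33] and held 207 CPM [199 to 216], with 217, 196, 195, 187, 277 and 207 CPM. It was above that of mural-like nuclei, the other cells of the vessel wall, at 54.0 CPM, by 1.94 [1.69 to 2.21], and above that of astrocyte-like nuclei, at 37.4 CPM, by 2.47 [2.36 to 2.58], in 6 of 6 libraries each. Neurons came after OPC-like nuclei, with 146 CPM in the Prox1 and Tspan18 set, 134 CPM in thalamic-like nuclei, 125 CPM in the Iqgap2 and Chst8 set and 119 CPM in Lhx6 interneuron-like nuclei, and neighbours in that order were within counting error. Thalamic-like exceeded striatal-like nuclei (86.4 CPM) by 0.64 [0.54 to 0.73] in 6 of 6 libraries. Telencephalic glutamatergic-like over striatal-like nuclei gave -0.03 [-0.13 to 0.07] between the planned gates and 0.13 [0.07 to 0.19] between classes. The gene 4430402I18Rik overlaps Slc1a1 on the opposite strand, was at 297 CPM in immature oligodendrocyte-like and 92.7 CPM in OPC-like nuclei, and was the gene most like Slc1a1 over the 24 classes. In ependymal-like nuclei 4430402I18Rik was at 155 CPM against 52.2 CPM of Slc1a1, and in every other class it was below Slc1a1. No source used here states whether counting kept the strands apart, and transcripts of this pair cannot be told apart if it did not.

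Slc1a2 (GLT1, ENSMUSG00000005089, chr2:102658659-102790784) clears most glutamate in the forebrain. The 7342 astrocyte-like nuclei held 6685 CPM [6654 to 6716] and 36.7% of all its UMIs, with 7248, 6896, 6100, 5973, 6773 and 7678 CPM. Ependymal-like nuclei were next at 1035 CPM, lower by a log2 ratio of 2.69 [2.63 to 2.75], and all 6 astrocyte-like libraries were above every other class. Astrocyte-like over telencephalic glutamatergic-like nuclei gave 3.59 [3.58 to 3.60] between classes and 3.44 [3.41 to 3.48] between the planned gates. Thinned to 2000 UMIs, 99.6% of astrocyte-like nuclei had a UMI, but so did 76.1% of microglia-like nuclei (unthinned, 99.8% and 74.8%), where the level was 780 CPM.

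Slc1a2 also differed among neurons. The Hs3st4 and Foxp2 set held 1018 CPM, with 984, 1108, 1080, 1009, 924 and 917 CPM, and the Tshz2 and Vwc2l set held 1012 CPM. The Rorb set held 711 CPM and the Cux2 set 414 CPM, with 403, 414, 484, 495, 339 and 323 CPM. Relative to the Cux2 set, the log2 ratios were 1.30 [1.27 to 1.33], 1.29 [1.24 to 1.34] and 0.78 [0.75 to 0.81], each in 6 of 6 libraries. These sets share their libraries and have median depths of 7460.5 to 8241 UMIs. None stood clear of the non-neuronal classes, which held 1001 CPM (mural-like), 830 CPM (fibroblast-like), 807 CPM (endothelial-like) and 780 CPM (microglia-like).

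Slc1a3 (GLAST, ENSMUSG00000005360, chr15:8634124-8710764, - strand) is the glutamate carrier of astrocytes and their radial glial forebears. It was at 1902 CPM [1885 to 1918] in astrocyte-like nuclei, with 1954, 2006, 1758, 1631, 2017 and 2218 CPM and 46.3% of its UMIs. Fibroblast-like nuclei, the cells of the meninges, came second at 731 CPM, with 657, 807, 714, 775, 703 and 698 CPM, followed by ependymal-like nuclei at 427 CPM. The astrocyte-like value was above the fibroblast-like one by 1.38 [1.33 to 1.43] on the log2 scale, and above OPC-like nuclei (216 CPM) by 3.14 [3.08 to 3.20] between classes and 3.03 [2.98 to 3.09] between the planned gates. Along the oligodendrocyte lineage Slc1a3 was at 216 CPM in OPC-like nuclei, 77.6 CPM at the immature stage and 99.8 CPM [92.5 to 107] in mature-like nuclei. The OPC-like value was higher than the immature-like one by 1.47 [1.30 to 1.65] on the log2 scale in 6 of 6 libraries, and endothelial-like nuclei held 103 CPM.

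In microglia-like nuclei Slc1a3 was at 261 CPM, with 263, 255, 263, 246, 258 and 297 CPM. In the same nuclei Slc1a2 went from 451 CPM in library 6 to 902 CPM in library 3, and in striatal-like nuclei Slc1a3 went from 32.2 to 88.7 CPM. Telencephalic glutamatergic-like nuclei held 42.6 CPM of Slc1a3, below astrocyte-like nuclei by 5.48 [5.44 to 5.52], the largest of the ratios computed here.

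Glul (ENSMUSG00000026473, chr1:153899944-153909723) makes glutamine from glutamate and ammonia. Astrocyte-like nuclei held 504 CPM [496 to 513], with 502, 473, 436, 414, 642 and 747 CPM. Fibroblast-like nuclei held 303 CPM, and microglia-like (234 CPM), endothelial-like (226 CPM) and mural-like nuclei (209 CPM) came next, in an order within counting error. Astrocyte-like nuclei were above fibroblast-like ones by 0.74 [0.66 to 0.81], above endothelial-like by 1.16 [1.09 to 1.22] and above microglia-like by 1.11 [1.03 to 1.18] on the log2 scale, each in 6 of 6 libraries. The planned pair, astrocyte-like over mature oligodendrocyte-like nuclei (107 CPM), gave 2.20 [2.08 to 2.33] between gates and 2.23 [2.13 to 2.34] between classes. Neuronal classes other than neuroblasts held 36.4 CPM (the Etv1 and Galnt14 set) to 57.3 CPM (Adarb2 interneuron-like nuclei), all below the microglia-like level.

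Slc6a11 (GAT3, ENSMUSG00000030307, chr6:114131241-114249952) is the astrocytic GABA carrier. It was at 399 CPM [392 to 407] in astrocyte-like nuclei, with 443, 429, 397, 346, 341 and 421 CPM and 37.3% of its UMIs. The next class, ependymal-like nuclei, held 63.8 CPM and was lower by 2.64 [2.40 to 2.90] on the log2 scale. Telencephalic glutamatergic-like nuclei held 29.2 CPM and microglia-like nuclei 38.6 CPM, and the Prox1 (43.5 CPM), Nr4a2 (43.4 CPM), Hs3st4 (42.1 CPM) and Tshz2 sets (41.4 CPM) and Adarb2 interneuron-like nuclei (43.4 CPM) were close to the latter.

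Within the astrocyte-like class the carriers differed little between 2333 nuclei with a UMI of Gfap, an intermediate filament of fibrous astrocytes, and 5009 without one. Slc6a11 was lower with Gfap, at 359 against 422 CPM, by -0.24 [-0.29 to -0.18] on the log2 scale, and Slc1a3 by -0.18 [-0.21 to -0.15], each in 6 of 6 libraries. Slc1a2 was higher by 0.09 [0.08 to 0.10] and Glul by 0.13 [0.08 to 0.18]. A Gfap UMI is more often detected in a deeper nucleus, and the part of depth in these ratios was not tested.

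Concentration in 1 class was compared with all genes. Of 14438 genes with 10 CPM or more in any gate, 19.9% had a highest gate at least 2-fold over the next, and of 14750 such genes 19.8% had such a class. Among the 9 genes, all of which reached 10 CPM, this held for 6 by gate and 5 by class. The 5 by class were Slc1a2 (6.46-fold), Slc6a11 (6.25-fold), Slc1a1 (2.86-fold), Slc17a6 (2.73-fold) and Slc1a3 (2.60-fold). The 6 by gate were the same genes and Slc17a8 (4.53-fold). Slc17a8 reached 10 CPM only in the choroid plexus gate, where 11 of 185 nuclei had a UMI, and the next gate was at 3.08 CPM. By class, telencephalic glutamatergic neurons form 8 sets. A gene shared by these sets, such as Slc17a7 (205 against 190 CPM in the next set), can hardly pass. Concentration in these neurons as a whole was not tested by class. The median ratio of the highest to the next class was 2.60 for the 9 genes and 1.22 for all. By gate it was 2.34 against 1.25.

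Spread over libraries was compared in the same way. In the astrocyte-like class 40.4% of 7761 genes with 20 CPM or more had a highest library at least 1.5-fold over the lowest, and 3 of the 6 members at that level did: Slc17a7 (2.03-fold), Slc1a1 (1.91-fold) and Glul (1.81-fold). Slc1a2 (1.29-fold), Slc6a11 (1.30-fold) and Slc1a3 (1.36-fold), the carriers highest there, varied less. In OPC-like nuclei 48.3% of 7458 genes passed 1.5-fold, as did 4 of 6 members, and Slc1a1 (1.41-fold) and Slc1a3 (1.26-fold) did not. In endothelial-like nuclei the share was 62.7% of genes and 4 of 6 members. In striatal-like nuclei 24.0% of 6442 genes and 5 of 6 members passed, and in the Cux2 set 26.6% of 6234 genes and 4 of 6 members. The striatal-like ones were Slc17a7 (3.00-fold), Slc1a3 (2.75-fold), Slc1a2 (2.71-fold), Glul (2.19-fold) and Slc32a1 (2.09-fold), while Slc1a1 (1.13-fold) did not pass. In striatal-like nuclei Slc17a7 (34.9 against 99.3 CPM), Slc1a3 (55.2 against 261) and Slc1a2 (303 against 780) lay below the microglia-like level. So did Glul (53.5 against 234) and Slc32a1 (21.9 against 26.7), while Slc1a1 (86.4 against 52.2) lay above it. In astrocyte-like nuclei Slc17a7 (78.1 CPM) and Slc1a1 (37.4 CPM) lay below it and Glul (504 CPM) above. The part of free RNA in these spreads was not tested. Genotype and any other difference between the libraries cannot be told apart here.

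Of 24 further genes of glutamate and GABA handling, 19 reached 50 CPM in at least 1 class. Fibroblast-like nuclei were the highest class for 5 of them: the cystine and glutamate exchanger Slc7a11 (990 CPM), the GABA and betaine carriers Slc6a13 (460 CPM) and Slc6a12 (59.1 CPM), and the neutral amino acid carriers Slc38a2 (1001 CPM) and Slc1a5 (50.1 CPM). Astrocyte-like nuclei were highest for 4 of the 24, of which 3 reached 50 CPM, among them glutamate dehydrogenase Glud1 (505 CPM) and the serine carrier Slc1a4 (55.0 CPM). Of the glutamine carriers, Slc38a1 was highest in ependymal-like nuclei (874 CPM, 6.01-fold over the next class), and Slc38a3 (136 CPM) and Slc38a5 (68.1 CPM) in endothelial-like nuclei. Neurons were highest for Gad1 (360 CPM, neuroblast-like), Gad2 (517 CPM, Adarb2 interneuron-like) and the GABA transaminase Abat (289 CPM, striatal-like). The mitochondrial glutamate carriers Slc25a18 and Slc25a12 were highest in ependymal-like (133 CPM) and choroid plexus-like nuclei (301 CPM).

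The genes most like each member over classes, by Pearson correlation of log2(CPM + 1), were named as a description, since classes share libraries. Among the 5 genes closest to Slc32a1 over 24 classes were Dlx6, Gad1 (r = 0.87 each) and Gad2 (0.85), genes of GABAergic neurons. Slc1a3 was closest to C4b (0.97) and F3 (0.95), Glul to Scd1, Gfap (0.97 each) and Aldoc (0.96), and Slc17a7 to Pgm2l1 and Mal2 (0.84 each). The planned list over 16 gates gave Pgm2l1 (0.87) for Slc17a7, F3 (0.96) for Slc1a3, Ntng1 (0.90) among those for Slc17a6, Myoc (0.92) for Slc6a11 and Stk26 (0.84) for Slc32a1.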

How the data were processed

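Forebrain nuclei of 3 WT and 3 Npc1-/- mice were sequenced after droplet capture with 3′ chemistry. The authors deposited raw UMI counts of 32285 genes in 75878 barcodes, in 1 matrix whose barcode suffixes 1 to 6 mark the libraries. Per the file headers the counts were written by cellranger 6.0.0, the submitters' processing notes list Cell Ranger 2.1.1 and mm10, and the methods describe another pipeline with empty droplet, doublet and mitochondrial filters. No source used here states how introns and strand were handled in counting.

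Nuclei with under 10% mitochondrial UMIs were kept. The planned gates required 3 of 8 markers and 2 more than any other list. Classes added after the data were seen started from 150 seed nuclei each and used the multinomial likelihood over 6009 genes, without the 9 genes and their pathway. No doublet caller was run. Nuclei better described by a mixture of 2 classes may be doublets and were set aside. Levels were pooled UMIs in CPM, ratios carry exact 95% binomial intervals and shares exact ones, covering counting error only. For shares, nuclei were thinned to 2000 UMIs and shallower nuclei left out. A count of 0 was given a limit of 3 counts. No genotype was assigned to a library, so no group test was made. The 9 members were all named, with partner genes of the pathway at 50 CPM or more and the 5 genes nearest by correlation, of which those given in the text are a part. Genes and subsets outside that rule, among them splits of the interneuron and oligodendrocyte classes, were chosen after the data had been seen. A planned split of astrocytes and some genes of the lists are not reported here. The members and lists were chosen with earlier results of these data known. Alternatives covered the marker thresholds, depth, size factors, filters, free RNA, each library and the classes. Gene positions are from GENCODE M21 (GRCm38) and promoters from RefSeq. Calculations used Python 3.11.15, numpy 2.4.6, scipy 1.17.1 and pandas 2.3.3, and figures matplotlib 3.10.9. The class assignment and the ratio intervals were tested on simulated data, drawn from the profiles of the marker-list gates other than the interneuron gate. The separate telencephalic glutamatergic sets, the interneuron classes and the Baiap3 and Scn9a class were not simulated. Thinning was not tested in this way.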

Additional observations from a re-analysis of the deposited data

How the results depend on the processing

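The planned ratios of all the genes but Slc6a11 were recomputed under alternative settings, some of which put classes in place of gates. Counted as 1 gene under 1 setting, 121 values were obtained. Of these, 81 stayed within the counting interval, 37 moved further and 3 turned the sign of a ratio whose interval leaves out 0. Slc1a1, whose planned interval includes 0, also changed sign in 5 of the values counted as staying or moving. With at most 1 marker of every other list, Slc17a7 turned to -0.80, on 2 thalamic nuclei with 1 UMI, Slc1a1 became 0.17 and Slc1a3 3.25. Requiring 4 markers gave 3.14 for Slc17a6, -0.17 for Slc1a1, 3.71 for Slc1a2, 3.09 for Slc1a3 and 2.39 for Glul, and requiring 2 gave 3.17 for Slc1a2, 3.13 for Slc1a3 and 2.01 for Glul. Without nuclei above 3 times the median depth, Slc1a2 was 3.51 and Slc1a3 2.93. Median-of-ratios size factors gave -0.49 for Slc32a1, 2.98 for Slc1a2, 2.92 for Slc1a3 and 1.89 for Glul, and the median over libraries 3.50 for Slc1a2 and 1.99 for Glul. After the level of the planned microglia gate was subtracted (0.736 CPM of Slc17a8 and 15.3 CPM of Slc32a1), Slc17a8 was 2.16 and Slc32a1 -1.35, and 5 of the genes gave no value. Between the classes, chosen after seeing the data, Slc32a1 turned to 0.16, and Slc17a7 was 1.62, Slc1a1 0.13, Slc1a2 3.59 and Slc1a3 3.14. With mixed nuclei kept these were 0.11, 1.57, 0.12, 3.48 and 2.82, and Glul 2.05. The cause of these moves was not tested. With 1 library left out, the ranges were 1.29 to 1.39 for Slc17a7, 3.48 to 3.64 for Slc17a6, 1.06 to 1.65 for Slc17a8, -0.39 to -0.21 for Slc32a1, -0.05 to -0.01 for Slc1a1, 3.40 to 3.52 for Slc1a2, 2.96 to 3.10 for Slc1a3 and 2.10 to 2.29 for Glul. The ratios of Slc17a6 and Slc17a8 could not be computed with at most 1 other marker. No paired analysis was possible because the barcodes carry no key to the mice. Depth limits Slc17a8 most, with 1093 UMIs in all.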

Other observations

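Neuroblast-like nuclei came unevenly from the libraries, with 552 of 1244 in library 3, and some of the 9 genes moved with that library. Slc17a6 was at 24.5 CPM in all of them and 44.1 CPM in the 692 outside library 3. Slc1a1 was at 96.9 and 60.7 CPM, and Slc1a3 at 219 and 272 CPM. Slc32a1 was at 29.6 and 29.4 CPM.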
